A study of Mus musculus with 6 samples.

Results

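Full-length KLF3 was compared with its zinc fingers alone (DBD) at the sites where either protein was bound in fibroblasts. The members are the 16677 regions, of 22188 in the table of all peaks, that the authors list for KLF3 or for DBD. The 5511 regions listed for neither entered only alternative settings that use all 22188 regions. Of the 16677 members, 14115 are listed for KLF3, 4955 for DBD and 2393 for both. Klf3-/- murine embryonic fibroblasts (MEFs) of the C57BL/6 strain were rescued by MSCV retrovirus with Klf3-V5 or with DBD-V5, so neither line makes the endogenous protein. DBD-V5 lacks the whole N-terminal domain and keeps the putative nuclear localization signal and the DNA-binding domain. Stable clonal lines with similar protein levels were chosen after puromycin selection, although DBD mRNA was somewhat lower, and each construct is represented by a clonal line. Anti-V5 chromatin immunoprecipitation (ChIP) and sequencing were done on 2 replicates of each line, which the series describes as biological duplicates. The replicates measure the spread within a line and not the spread between independent clones, so the construct and the clone cannot be told apart. No expression values were used here, and the fibroblast label was not checked against marker genes.

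KLF3 belongs to the KLF/Sp family, whose C-terminal C2H2 zinc fingers contact CACCC boxes and related GC-rich DNA. Its N-terminal domain recruits the corepressor CtBP, through which KLF3 silences target genes. Zinc fingers are commonly taken as the part of a transcription factor that finds its sites, and the comparison with DBD asks how much of the genomic occupancy remains when the fingers act without the N-terminal domain.

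The sites were grouped by the measured values. Dependent sites (9150) are listed for KLF3, have no peak in either DBD list and have a DBD height at least 4-fold below that of KLF3. Kept sites (2314) have a peak in all 4 replicate lists and heights within 2-fold of each other. Weakened sites (73) also have a peak in all 4 lists, but with DBD at least 2-fold lower. DBD-only sites (659) have a peak in both DBD lists and in neither KLF3 list, and the other 4481 are called intermediate. Since heights and calls defined these classes, their heights are given as a description and were not tested. Height means the number of tags in 400 bp scaled to 100 M tags, with both replicates of a construct counted together, so it has no replicate error. Uniform coverage of the genome would give 15.1 such tags in 400 bp.

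The DNA under the classes differed in plain view. The central 100 bp of 5 sites that lost DBD calls or height are shown first, on the plus strand of mm9, with the KLF core in capitals. The core was searched on both strands as the word ACACCC, then its variant ACGCCC, then the box word CCACCC and then the GC-rich word CCGCCC. The Usp12 promoter site, at chr5:147606593-147606692, the Rc3h1 promoter site, at chr1:162836377-162836476, and the Plec site, at chr15:76034652-76034751 in the first intron, are dependent. The Ppp1r10 site, at chr17:36053848-36053947, and the Tob2 site, at chr15:81688729-81688828, are weakened promoter sites.
Usp12: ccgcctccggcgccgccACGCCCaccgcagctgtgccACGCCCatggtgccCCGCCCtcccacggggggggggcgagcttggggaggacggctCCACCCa
Rc3h1: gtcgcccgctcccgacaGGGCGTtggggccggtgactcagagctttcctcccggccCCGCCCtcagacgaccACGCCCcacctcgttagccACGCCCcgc
Plec: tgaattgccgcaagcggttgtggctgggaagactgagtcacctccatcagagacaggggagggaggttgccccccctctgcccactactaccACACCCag
Ppp1r10: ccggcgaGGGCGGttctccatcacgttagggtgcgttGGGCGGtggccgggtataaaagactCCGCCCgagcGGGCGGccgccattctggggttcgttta
Tob2: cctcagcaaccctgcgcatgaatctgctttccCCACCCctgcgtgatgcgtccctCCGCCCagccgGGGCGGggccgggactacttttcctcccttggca

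Kept sites were mostly A+T-rich. The Rapgef6 site, at chr11:54436088-54436187 in an intron, and the Gm3852 site, at chr1:46063450-46063549 between genes, are among the 10 kept sites with the highest DBD height, and neither window holds the KLF core letters. They are the exceptions among those 10, of which the other 8 hold KLF core letters in the central 100 bp and 7 have a G+C content of at least 49% in 400 bp.
Rapgef6: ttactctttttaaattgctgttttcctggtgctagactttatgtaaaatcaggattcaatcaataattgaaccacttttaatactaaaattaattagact
Gm3852: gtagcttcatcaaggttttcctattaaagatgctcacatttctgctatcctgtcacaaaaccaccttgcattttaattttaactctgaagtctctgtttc

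The remaining 3 windows are also from those 10 kept sites, and they hold 1, 3 and 2 KLF core matches that are left in lower case. They lie in the last intron of Grin1 at chr2:25148515-25148614, in an intron of Prph at chr15:98886921-98887020 and in an intron of Map3k6 at chr4:132806693-132806792. Capitals mark the word AGAGGGC, the related word AGATGGC, or the words with more G, namely AGGGGGC and also AGGTGGC, on either strand. These are a part of the consensus of CTCF, the factor that organizes chromatin loops.
Grin1: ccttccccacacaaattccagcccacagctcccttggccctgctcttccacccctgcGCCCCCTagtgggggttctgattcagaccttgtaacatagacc
Prph: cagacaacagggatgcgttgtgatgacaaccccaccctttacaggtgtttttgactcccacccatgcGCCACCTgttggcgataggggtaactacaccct
Map3k6: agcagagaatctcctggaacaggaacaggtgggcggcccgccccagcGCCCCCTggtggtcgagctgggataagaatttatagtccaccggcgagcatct

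The libraries differed before any comparison was made. The tags behind the scores numbered 5.46 M and 18.1 M for KLF3 replicates 1 and 2, and 7.81 M and 8.38 M for DBD replicates 1 and 2. A peak therefore needed at least 5 and 13 tags in the KLF3 lists and at least 7 and 8 in the DBD lists. The KLF3 lists stood apart from each other, with a median G+C content of 45.5% in replicate 1 and 54.5% in replicate 2, against 34.4% and 34.6% in the DBD lists. Over the 2398 regions called in all 4 lists, the median log2 score was 7.66 and 6.55 in the KLF3 lists and 7.49 and 7.28 in the DBD lists. The SD between these list medians was 0.78 for KLF3 and 0.15 for DBD. Overlap counts and class sizes are given without a KLF3 list where that moves them.

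The Klf3 gene itself was used as a check of the constructs, which carry Klf3 coding sequence. Its longest reading frame in the GENCODE annotation holds 3 C2H2 zinc finger patterns, all encoded in exons 5 and 6. The exons of the peaks are numbered as in the authors' annotation, and exons were matched by number. The library labelled DBD replicate 1 had peaks over exons 3, 4, 5 and 6 with 17, 20, 26 and 20 tags, whereas DBD replicate 2 had none over these exons. The KLF3 lists had 14 and 48 tags over exon 3, 22 and 26 over exon 4, 15 and 34 over exon 5, and 30 and 33 over exon 6. Exons 3 and 4 encode no zinc finger pattern, and the start of the DBD-V5 coding sequence was not placed on the exons. Where the tags over exons 3 to 6 in the library labelled DBD replicate 1 came from was not tested. Regions called in both KLF3 lists had a peak in DBD replicate 1 alone at 359 places and in DBD replicate 2 alone at 337, while regions called in KLF3 replicate 1 and not in KLF3 replicate 2 had 1077 and 597. The exon peaks were chosen after their values were seen, and the main counts are given without each DBD library where these move them. At the Klf3 promoter, KLF3 peaks had 43 and 109 tags and no DBD list had a peak, so the heights were 1136 and 72.0 normalized tags, a difference of −3.98 on the log2 scale.

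Far fewer peaks were called for DBD than for KLF3, and a larger share of the DBD peaks was intergenic. The KLF3 lists held 2.93 times as many peaks as the DBD lists. Promoter peaks, from 1000 bp before to 100 bp after a transcription start site (TSS), made up 20% and 31.0% of the KLF3 lists and 1.59% and 2.8% of the DBD lists. This was 25.5% ± 7.74 for KLF3 and 2.2% ± 0.853 for DBD (SD, n = 2 lists). CpG islands outside promoters took 3.0% and 5.43% of the KLF3 peaks and 0.0983% and 0.148% of the DBD peaks. First introns took 13.8% and 14.9% of the KLF3 peaks, above the 9.81% and 10.2% of the DBD peaks.

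Distal classes went the other way. Intergenic peaks were 42.2% and 32.7% of the KLF3 lists and 58.8% and 57.9% of the DBD lists. Intergenic peaks over 100 kb from any TSS made up 16.4% and 9.17% of the KLF3 lists and 33.7% and 32.5% of the DBD lists. LINE elements, the long interspersed retrotransposons, held 5.59% and 2.85% of the KLF3 peaks and 12.1% and 11.5% of the DBD peaks. LTR elements took 4.39%, 3.55%, 5.49% and 5.06% of KLF3 replicates 1 and 2 and DBD replicates 1 and 2. In each of 15 measures of the lists the KLF3 and DBD values did not overlap. The two-sided exact permutation test gave p = 0.333 for each, which is the smallest that 6 arrangements of 2 against 2 lists allow, and 0.333 after adjustment over the measures. The design cannot pass a threshold of 0.05. At a common minimum of 13 tags a peak, 7598 and 23872 KLF3 peaks and 2249 and 1752 DBD peaks remained. This minimum was the smallest count in KLF3 replicate 2, so that list lost no peak. A tag was worth 18.3 and 5.53 per 100 M in KLF3 replicates 1 and 2, and 12.8 and 11.9 in the DBD replicates. The cut was therefore stricter for the other lists and did not adjust for depth.

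**Figure D1:**
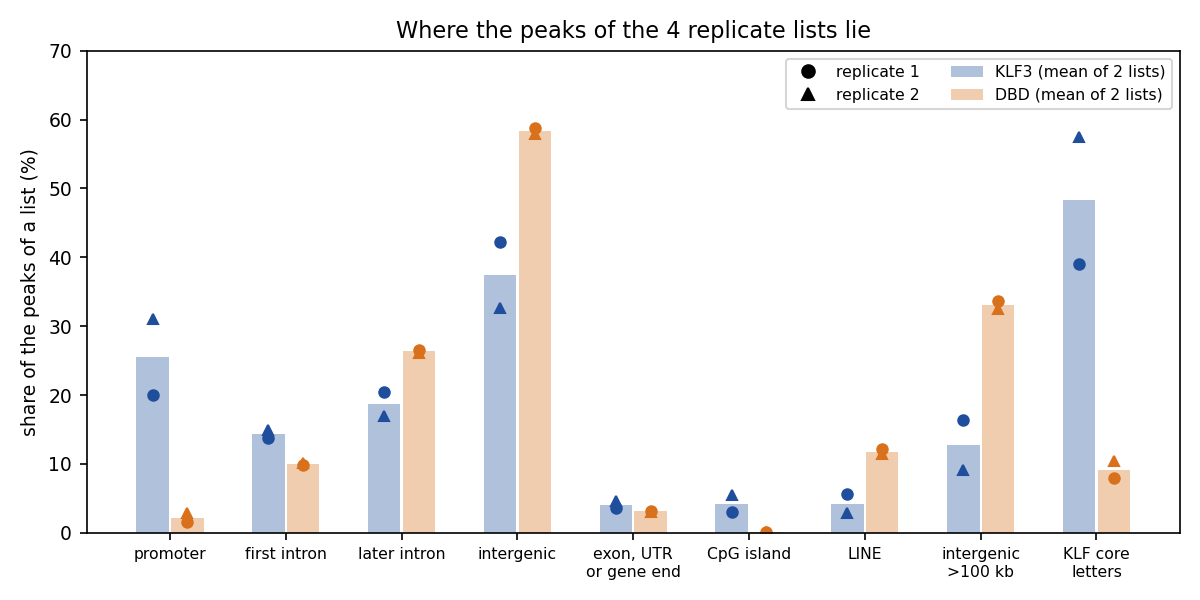
The share of the peaks of each replicate list (y axis, %) that fall in each region class or within LINE elements. Further shares are of intergenic peaks over 100 kb from a TSS and of peaks with KLF core letters in the central 100 bp. Circles and triangles are replicates 1 and 2 and bars are means of 2 lists, with promoter shares of 20% and 31.0% for KLF3 against 1.59% and 2.8% for DBD.

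A KLF3 site had a DBD peak less often than a DBD site had a KLF3 peak, an order that the unequal list sizes favour. The 2398 regions called in every list are divided by 14122 KLF3 regions or by 4957 DBD regions, which fixes the order of those shares. Shares with a peak in either list also depend on list length, and the KLF3 lists held 2.93 times as many peaks. The order therefore cannot tell a difference between the constructs from a difference in list size. Of the 14122 regions called in both KLF3 lists, 3094 (21.9%, 95% Wilson interval 21.2 to 22.6, counting error only) overlapped a peak of either DBD list by at least 1 bp. Both DBD lists had a peak at 2398 of them (17.0%), and neither had one at 11028 (78.1%). With DBD replicate 2 alone the count was 2734, and with DBD replicate 1 alone it was 2757. Taken by themselves, the peaks of KLF3 replicate 1 overlapped a DBD peak in 6475 of 26772 cases (24.2%) and those of KLF3 replicate 2 in 3508 of 23872 (14.7%).

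In the other direction, 4295 of the 4957 regions called in both DBD lists (86.6%) had a peak in either KLF3 list and 662 (13.4%) had none. Both KLF3 lists had a peak at 2398 of them (48.4%). The KLF3 replicates did not share these regions evenly. KLF3 replicate 1 had a peak at 4120 (83.1%) and KLF3 replicate 2 at 2573 (51.9%), and 1722 (34.7%) were called in KLF3 replicate 1 and not in replicate 2. Those 1722 regions had a median G+C content of 32.8%, and 0.407% were promoters.

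Promoters had the lowest share of DBD calls among the main region classes. By the authors' table, 22.1% of all regions listed for KLF3 had a peak in either DBD list. Against that share, 192 of 4259 promoter sites (4.51%) had such a peak, and 48 (1.13%) had one in both lists. A peak in either DBD list was at 312 of 1876 first-intron sites (16.6%), 782 of 2457 later-intron sites (31.8%) and 1729 of 5002 intergenic sites (34.6%). CpG islands outside promoters had such a peak at 13 of 621 sites (2.09%), and LINE elements at 298 of 478 (62.3%).

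The heights followed a similar order. Over all 16677 members DBD was at least 2-fold lower at 11184 (67.1%) and at least 2-fold higher at 363 (2.18%). The second count depended on the scaling. It was 5119 when the medians were equalised over all 22188 regions and 39 when they were equalised over sites listed for both constructs. The median KLF3 site had 241 normalized tags for KLF3 and 50.2 for DBD, and the median of the log2 difference, DBD minus KLF3, was −2.54, with quartiles at −3.31 and −1.53. At promoter sites the medians were 324 and 42.2 normalized tags and the log2 difference was −3.02. CpG islands outside promoters stood at −3.19, 5′ UTRs at −3.04 and first introns at −2.60. Later introns had a median log2 difference of −2.12 and intergenic sites of −2.10. With medians equalised over all 22188 regions, promoters stood at −1.86 and intergenic sites at −0.94.

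Distance from a TSS separated the intergenic sites. Those within 10 kb had a median log2 difference of −2.57, and those from 10 to 100 kb one of −2.33. The 1584 sites beyond 100 kb had median heights of 156 normalized tags for KLF3 and 125 for DBD, and a median log2 difference of 0.06. Their quartiles were far apart, at −2.43 and 0.46, and DBD was at least 2-fold lower at 666 of them (42.0%). KLF3 sites in LINE elements had a median log2 difference of 0.17, against −1.64 in SINE and −2.08 in LTR elements. The LINE quartiles were −2.16 and 0.5, and DBD was at least 2-fold lower at 35.8% of the LINE sites. No interval is given on these differences, because each construct has a single combined height at a site.

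The difference was not graded across the distal sites. Intergenic KLF3 sites formed separate groups, with 1692 (33.8%) within 2-fold and 52.6% over 4-fold lower, and 662 (13.2%) between those limits. In steps of 0.5 on the log2 scale, 719 intergenic sites fell in the step that starts at −3.0, 75 in that at −1.0 and 888 in that at 0.0. Promoters had 1 group. Only 63 of the 4259 promoter sites (1.48%) were within 2-fold, and 87.7% were over 4-fold lower. Near the class limits the numbers were small, with 5 sites just inside and 3 just outside the 2-fold limit for lower DBD among kept sites, counted within 0.05 on the log2 scale. The 4-fold limit of the dependent sites crossed a continuous distribution, with 167 just inside and 174 just outside.

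**Figure D2:**
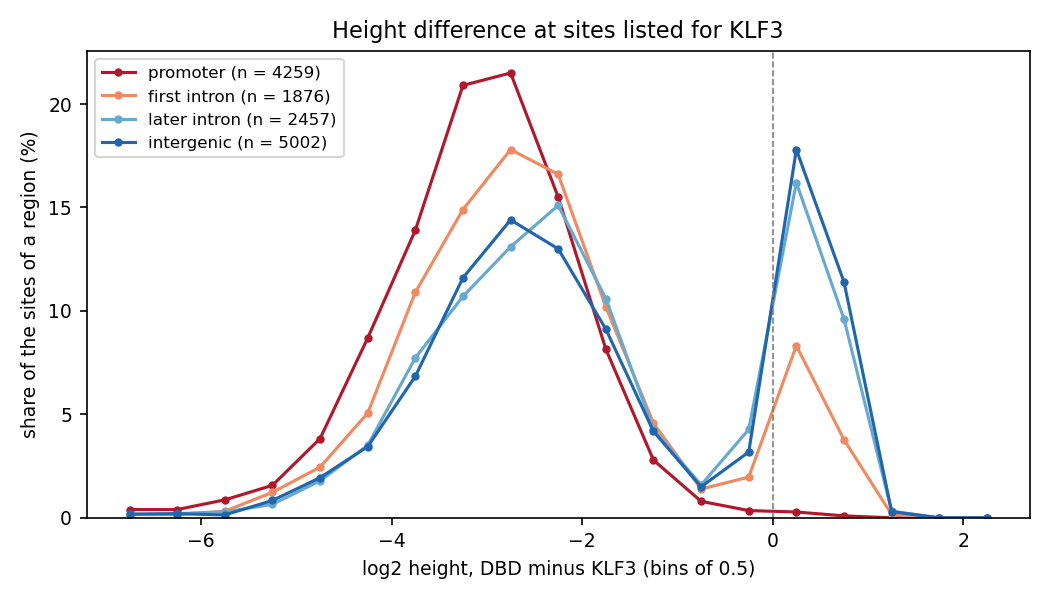
The log2 height difference, DBD minus KLF3, of the KLF3 sites in each region class (x axis, steps of 0.5) against the share of that class (y axis, %). Intergenic sites fall in 2 groups with few between, and promoter sites in 1 group around their median of −3.02.

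G+C content followed the difference over its whole range. Below 35% G+C in 400 bp, KLF3 sites had a median log2 difference of 0.42 and a DBD peak at 91.0%. Sites of 35 to 40% G+C had a difference of 0.08 and a DBD peak at 61.1%. The difference was −1.98 at 40 to 45%, −2.67 at 50 to 55% and −3.33 at 65% or more, where 2.1% of the sites had a DBD peak. At 40% G+C or more, the height difference at promoters was no lower than at other sites of like composition. At 60 to 65% G+C the median log2 difference was −2.97 at promoters and −3.09 elsewhere, and at 40 to 45% it was −1.98 in both. DBD peaks were nevertheless at 19.4% of 62 promoters and 31.3% of other sites of 40 to 45% G+C, and at 13.4% of 149 promoters and 19% at 45 to 50%. The shares were close in the bins with more promoters. They were 11.2% and 10.7% at 50 to 55% G+C (366 promoters) and 4.62% and 4.32% at 55 to 60% (757). At 60 to 65% they were 3.65% and 3.38% (1069 promoters), and at 65% or more 2.07% and 2.17% (1835). Within promoters the difference was −3.20 at 60% G+C or more, −2.65 at 50 to 60% and −2.15 below 50%, where 16.8% had a DBD peak. How much of the order of the region classes comes with base composition was not tested.

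The KLF core letters went with a lower DBD share at the same composition, mainly among A+T-rich sites. At 35 to 40% G+C, the 262 sites with KLF core letters in the central 100 bp had a median log2 difference of −1.97 and a DBD peak at 23.3%. The 1118 sites without them had 0.24 and 69.9%. At 45 to 50% G+C the differences were −2.42 and −2.36, although the shares with a DBD peak were 11.4% and 25.4%. By the number of core matches in 400 bp, the median log2 difference was 0.07 with none, −2.33 with 1, −2.62 with 2 and −3.32 with 6 or more. The share with a DBD peak went from 57.7% to 2.38% over that range, and the median G+C content rose from 40.2% to 68.0%.

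**Figure D3:**
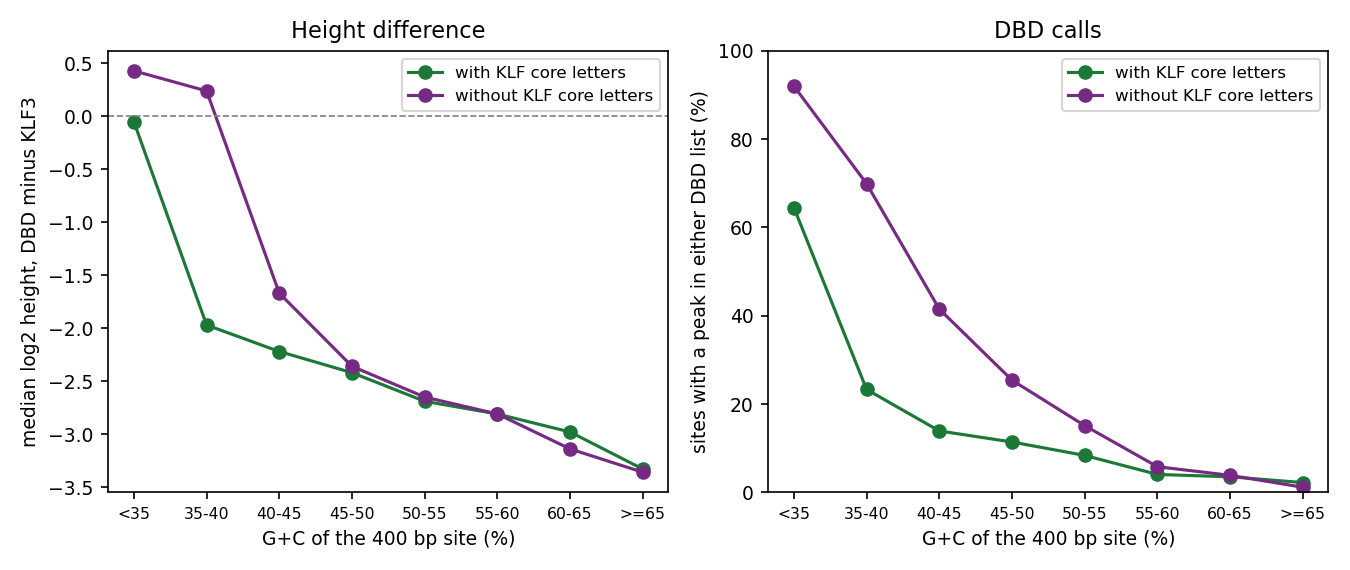
The median log2 height difference (left, DBD minus KLF3) and the share of KLF3 sites with a peak in either DBD list (right, %) by G+C content of the 400 bp site (x axis, %). Green points are sites with KLF core letters and purple points are sites without them; at 35 to 40% G+C they stand at −1.97 and 0.24.

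Dependent sites made up 54.9% of the members, and promoters were their largest region class. Of the 9150, 3641 were promoter sites, 2594 intergenic, 1287 in later introns, 1284 in first introns and 344 in exons, UTRs or gene ends. Their median height was 300.0 normalized tags for KLF3 and 36.5 for DBD, of which the latter stands for 5.86 tags as sequenced. The median peak had 13 tags in KLF3 replicate 1 and 31 in KLF3 replicate 2. The median G+C content of dependent sites was 56.2% and their median conservation score, on the authors' scale from 0 to 1, was 0.19.

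The dependent promoters with the highest KLF3 height were at genes of varied function. At Usp12, a ubiquitin-specific protease, the peaks had 67 and 214 tags in KLF3 replicates 1 and 2 and no DBD list had a peak. The heights there were 1722 and 66.7 normalized tags, a log2 difference of −4.69. Pvrl3, the adhesion molecule nectin-3, had 75 and 174 tags in the KLF3 peaks and a log2 difference of −3.94. Lmnb1, which encodes lamin B1, had 50 and 178 tags and −4.86. The promoter shared by 1700123M08Rik and Pdp1, a phosphatase that activates pyruvate dehydrogenase, had 76 and 165 tags and −5.05. None of these 4 promoters had a peak in either DBD list.

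The same rule named 4 more promoters, each without a DBD peak. Sept10, a septin whose peak lies on the start of Sowahc, had 64 and 169 tags in the KLF3 lists and a log2 difference of −5.10. Oxsr1, a stress-responsive kinase, had 52 and 133 tags and −4.80. Anxa5, the phospholipid-binding annexin A5, had 55 and 157 tags and −4.28. Tcf3, the E-protein transcription factor E2A, had 71 and 140 tags and −3.67. At Rc3h1, an RNA-binding regulator of mRNA decay whose window is printed with Usp12, the KLF3 peaks had 72 and 169 tags and the log2 difference was −4.25.

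Introns and intergenic regions held dependent sites of like height. In first introns the highest were Plec, the cytoskeletal linker plectin (60 and 162 tags, log2 difference −4.25), and Actb, which encodes beta-actin (44 and 144 tags, −5.27). Ncam1, a cell adhesion molecule, and Ywhaz, a 14-3-3 adaptor protein, followed with −3.85 and −4.09. The second intron of Bahcc1 held a pair of dependent sites, the higher of which had 64 and 155 tags in the KLF3 peaks and a log2 difference of −5.68. In later introns Foxk1, a forkhead factor, had 80 and 193 tags and −3.70. Aktip, which binds the kinase AKT, had −5.33. The highest intergenic dependent sites were nearest to Ppp1r2 (91 and 176 tags, −3.86), Med13l (−4.48), Tnrc18 (−4.46) and S100a2 (−3.48).

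Weakened sites were few, and their definition left only tall KLF3 peaks. It asks for a peak in both DBD lists and a KLF3 height at least 2-fold above that of DBD. The lowest heights in the class were 115 normalized tags for DBD and 247 for KLF3. Their median height was 709 normalized tags for KLF3 and 187 for DBD, and the median peaks had 37 and 88 tags in the KLF3 lists and 10 and 11 in the DBD lists. Promoters were 26 of the 73. Ppp1r10, a regulatory subunit of protein phosphatase 1, had 109, 209, 13 and 17 tags in KLF3 replicates 1 and 2 and DBD replicates 1 and 2, with a log2 height difference of −3.11. Tob2, an antiproliferative protein, had 122, 218, 16 and 22 tags and −2.34. All KLF3 values at these promoters lay above all DBD values. The number of weakened sites depended on the DBD lists, with 303 when DBD replicate 1 was left out and 148 when DBD replicate 2 was.

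Kept sites lay mostly outside genes and in A+T-rich DNA. Of the 2314, 1394 were intergenic, 622 in later introns, 209 in first introns and 24 at promoters, and 11.2% were in LINE elements against 1.44% of the dependent sites. Their median height was 132 normalized tags for KLF3 and 175 for DBD, and their median G+C content was 38.2%. Conservation was lower than at dependent sites, with a median score of 0.03. By replicate the median peak had 11 and 17 tags for KLF3 and 14 and 13 for DBD, so the median kept peak was low in every list. With KLF3 replicate 2 left out, 3877 sites met the definition.

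The tallest kept sites differed from the rest. The site in the last intron of Grin1, an NMDA receptor subunit, had 99, 172, 95 and 102 tags in KLF3 replicates 1 and 2 and DBD replicates 1 and 2. Its heights were 1060 normalized tags for KLF3 and 1152 for DBD, a log2 difference of 0.12. Prph, the intermediate filament peripherin, had 94, 158, 53 and 58 tags and a log2 difference of −0.45. Map3k6, a stress-activated kinase, had 65, 125, 45 and 51 tags and −0.44. In the A+T-rich windows, Rapgef6, an exchange factor for Rap GTPases, had 64, 83, 65 and 71 tags and 0.43. The site near Gm3852 had 61, 76, 67 and 60 tags and 0.44. Intergenic sites near Grap (75, 153, 73 and 67 tags), Klhdc8a (104, 204, 50 and 56), Arap2 (56, 71, 84 and 59), S100a14 (116, 184, 50 and 58) and Cttnbp2nl (100, 171, 34 and 49) complete the 10. Per 100 M tags, KLF3 replicate 2 scored below both DBD libraries at Grin1, Rapgef6, Gm3852 and Arap2.

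Few promoters were kept. The highest in DBD was Mcart1, a mitochondrial carrier also named Slc25a51, with 41, 58, 40 and 42 tags and heights of 484 and 388 normalized tags. Tdrd3, a Tudor domain protein, had a log2 difference of 0.28 and Rdm1, a RAD52 motif protein, one of −0.38. Olfr103 and Olfr432, which encode olfactory receptors, had 0.67 and 0.17, and Tas2r119, a taste receptor, had 0.32. Ralyl, Arsk, Fars2 and Mir370 had 0.28, −0.84, −0.16 and 0.19. The 24 kept promoters had a median G+C content of 45.2%, against 64.5% at the dependent promoters. In all, 50 promoter sites of the authors' table had a peak in all 4 lists, 26 weakened and 24 kept. The weakened sites named Slc3a2 and Snhg1 overlap and share the same peaks (17, 90, 10 and 11 tags). With peaks joined into regions across the 4 lists, 47 promoter regions had a peak in each.

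DBD-only sites also carried KLF3 tags. Their median height was 71.5 normalized tags for KLF3 and 122 for DBD, a log2 difference of 0.77, and 174 of the 659 were at least 2-fold higher for DBD. Near Gtpbp4 the DBD peaks had 62 and 70 tags and neither KLF3 list had a peak, but the KLF3 height was 657 normalized tags against 885 for DBD. Near Pxmp3 the DBD peaks had 63 and 41 tags and the heights were 648 and 781. The Limd1 site, in the 3′ UTR of Lars2, had 51 and 46 tags and heights of 405 and 609. In an intron, the site named for Ccdc3 had 40 and 32 tags with heights of 261 and 391 normalized tags. The absence of a KLF3 peak at these sites was therefore not an absence of KLF3 tags. Without KLF3 replicate 1, 2378 sites would count as DBD only.

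**Figure D4:**
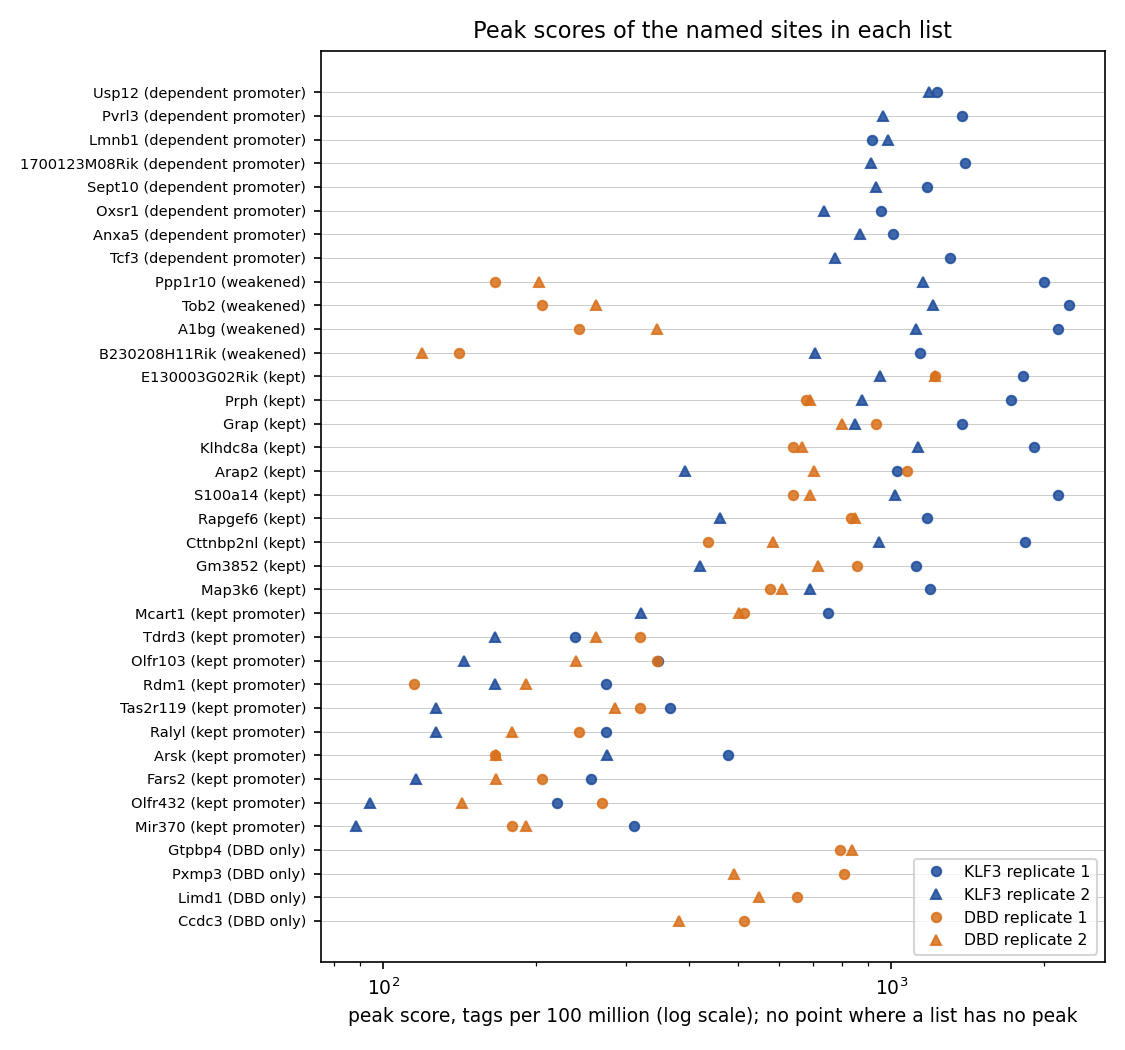
Peak scores (x axis, tags per 100 M tags, log scale) of the dependent promoters, weakened, kept and DBD-only sites that the naming rule chose and that are reported here, in KLF3 (blue) and DBD (orange) replicates 1 (circles) and 2 (triangles). No point is drawn where a list has no peak, so dependent promoters show only KLF3 points and DBD-only sites only DBD points, while at the E130003G02Rik site (the last intron of Grin1) DBD points lie between the KLF3 points.

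Letters for KLF binding marked the dependent sites and not the kept ones. The 4 KLF core words were found in the central 100 bp of 70.3% of dependent sites (Wilson interval 69.4 to 71.3) and in 24.5% of 100 bp flanks 400 to 500 bp from the centre. Kept sites held them at 7.78% (6.76 to 8.94), below the 10.2% of their flanks, and DBD-only sites at 6.22%, with 10.2% in the flanks. Weakened sites had the highest share, 82.2% (71.9 to 89.3). In the 100 bp before all 45982 annotated TSSs the share was 46.0%. By list, KLF core letters lay under 39.1% and 57.5% of the KLF3 peaks and 7.94% and 10.4% of the DBD peaks. In the 500 peaks with the highest score of each list, the shares were 79.8% and 89.0% for KLF3 and 9.6% and 13.4% for DBD. Intervals treat sites as independent and cover counting error only.

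Words of other factors were also found at dependent sites. The AP-1 words TGACTCA or TGAGTCA, bound by Fos and Jun dimers, were in 13.0% of dependent sites against 1.71% of their flanks, and in 1.56% of kept sites against 1.58%. Before all TSSs the share was 1.51%. Within dependent sites AP-1 words were at 20.7% of those without KLF core letters (563 of 2714) and at 9.7% of those with them (624 of 6436). Promoters with KLF core letters had 1.73% and intergenic sites without them 25.8%. The ETS word CCGGAAG was at 5.57% of dependent sites and 1.0% of their flanks, and at 0.0864% of kept sites. Its share before all TSSs was 5.73%. The TEAD word GGAATG was at 9.15% against 5.05% in flanks and 3.88% before all TSSs, and the RUNX word TGTGGTT at 4.47% against 2.01% and 1.58%. At kept sites these were 4.67% against 5.36% and 2.51% against 2.14%.

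The word TATAAA, which is A+T-rich, ran the other way. It was in 17.3% of kept sites and 11.9% of their flanks, in 20.2% of DBD-only sites, and in 3.33% of dependent sites against 4.66% in flanks. Before all TSSs it was at 4.76%. The CTCF core was in 3.72% of kept sites and 5.32% of their flanks, in 12.9% of dependent sites and 8.28% of their flanks, and in 12.6% of the stretches before all TSSs. The 20 kept sites with the highest DBD height were different, with CTCF core letters at 8 (40.0%) and in 5.0% of flanks, and KLF core letters at 9 (45%). In the kept sites outside the top 100 the CTCF share was 3.34%. A longer form, with a C and any 3 letters before the core, was at 6 of the 20 (30%) and at 1.3% of all kept sites. This pattern of the 20 highest sites was seen in the values first and was not tested. A match of letters is a description and does not show that a factor was bound. Both strands were searched in each case.

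**Figure D5:**
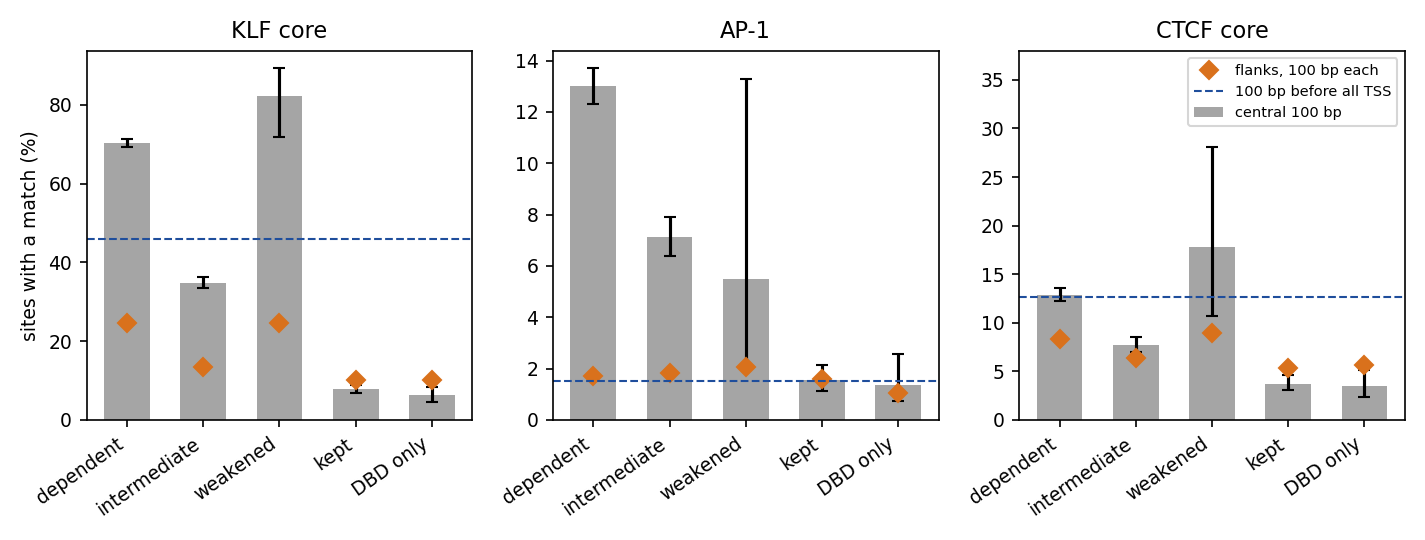
The share of sites in each class with KLF core, AP-1 or CTCF core letters in the central 100 bp (bars, %, with 95% Wilson intervals), in their flanks (diamonds) and in 100 bp before all TSSs (dashed line). KLF core letters stand at 70.3% of dependent and 7.78% of kept sites, and AP-1 words at 13.0% and 1.56%.

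Sites with a peak in all 4 lists are the only ones at which both groups have a replicate error, and sites that lost DBD peaks are absent from them by construction. At these 2398 regions limma on the log2 peak score gave a lower DBD score at 7 (0.292%) and a higher one at 0 (0.0%) at a Benjamini-Hochberg adjusted p under 0.05. At an unadjusted p under 0.05 there were 49 lower and 0 higher. Of the 7, 6 were promoters and all 7 held KLF core letters. The lowest adjusted p was at the promoter of Ech1, an enoyl-CoA isomerase (log2 difference −3.51, SE 0.77, adjusted p = 0.0142 by limma). Its tags were 85, 184, 8 and 10 in KLF3 replicates 1 and 2 and DBD replicates 1 and 2. Ppp1r10 (−3.05, SE 0.72), Tob2 (−2.82, SE 0.69) and Kntc1, a kinetochore protein (−3.08, SE 0.77), followed with adjusted p from 0.0193 to 0.03 by limma. Among the 47 promoters the median log2 score difference was −1.12, against 0.24 over all 2398 regions. The 5 regions with the lowest p for a higher DBD score, near Gm6432, Mir876, Dnajc24, Pcdh20 and Aff2, had log2 differences from 1.06 to 1.21 and an adjusted p of 0.998 by limma. The count changed with each library left out. In such a fit the lone library of a construct is assumed to vary like the other construct, and its own spread is not measured. The SD between list medians, 0.15 for DBD and 0.78 for KLF3, is an offset of whole lists and not the spread at a region. Without KLF3 replicate 1, 68 regions were lower and 965 higher, and without KLF3 replicate 2, 94 were lower and 0 higher. Without DBD replicate 1 or DBD replicate 2 none was lower or higher.

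Most genes with KLF3 nearby had dependent sites only. Of 8593 genes nearest to a KLF3 site, 4823 (56.1%) had dependent sites and no others, 1039 (12.1%) had kept sites and no others, and 561 (6.53%) had both kinds. At promoters, 4073 genes had a KLF3 site and 191 of them (4.69%) had a DBD peak there. With peaks in both DBD lists required, 48 genes (1.18%) were left, and with DBD replicate 1 alone it was 93 genes. Without DBD replicate 1 it was 146.

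Gene lists were read against all KLF3 promoter sites, of which 87.7% were over 4-fold lower for DBD and 4.51% had a DBD peak, with a median log2 difference of −3.02. Of 7 promoter sites at KLF and Sp factors all 7 were over 4-fold lower for DBD, with a median log2 difference of −3.98. Klf11, a TGF-beta-inducible repressor, had 67 and 134 tags in the KLF3 lists, 8 tags in DBD replicate 1 and no peak in DBD replicate 2. Over all 42 sites nearest to genes of this family, 28 were dependent, 4 were kept and 11 had a DBD peak, where 9150 of all 14115 KLF3 sites were dependent, 2314 were kept and 3122 had a DBD peak. Among the 11 are the sites over Klf3 exons 3, 4, 5 and 6, which had a peak in DBD replicate 1 only and tags of untested origin. Near Klf6 both kinds were found, a dependent intergenic site with heights of 982 and 48.2 normalized tags and a kept one with 197 and 294. At CtBP and its corepressor complex 7 of 7 promoter sites were over 4-fold lower, with a median of −3.23. Rcor3, a corepressor of the CoREST complex, had a promoter log2 difference of −5.12, and Ctbp1 had a dependent first-intron site with 396 and 55.3.

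AP-1 factor genes had 7 of 7 promoter sites over 4-fold lower, with a median log2 difference of −4.05. Near Atf3, a stress-induced AP-1 partner, a dependent site had 73 and 161 tags in the KLF3 lists. TEAD and Hippo pathway genes had 10 of 10 and a median of −2.96. Near Ankrd1, a target of YAP, the KLF3 peaks had 82 and 148 tags, DBD replicate 1 had none and DBD replicate 2 had 12. None of the promoter sites of these lists had a DBD peak.

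At actomyosin and lamin genes 15 of 18 promoter sites were over 4-fold lower, against 87.7% of all KLF3 promoter sites, and 18 of 18 over 2-fold lower, with a median of −3.40. Vim, the intermediate filament of mesenchymal cells, had 83 and 147 tags at its dependent promoter. Lmna, which encodes lamins A and C, had dependent sites across its first intron with log2 differences from −2.91 to −3.61. At its promoter a DBD-only site had 11 and 21 tags in the DBD lists and no KLF3 peak, with heights of 360 for KLF3 and 296 for DBD. Extracellular matrix and integrin genes had 9 of 9 promoter sites over 4-fold lower and a median of −3.22. Col1a2, a chain of type I collagen, had a weakened first-intron site with 26, 66, 10 and 8 tags. TGF-beta pathway genes had 12 of 12 and a median of −3.64, and 6 of their 75 sites were kept, among them introns of Ltbp1 and Tgfbr3, against 2314 of 14115 over all KLF3 sites.

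Genes of G1 control had 14 of 15 promoter sites over 4-fold lower, beside 87.7% of all, and a median of −3.10. Cdk4, a kinase of G1 progression, had heights of 671 and 32.4 normalized tags, and the 5′ UTR site of Myc had 662 and 34.3. Cholesterol synthesis and transport genes had 8 of 9 and −3.84. Srebf2, the master regulator of sterol synthesis, had 1243 and 61.8 normalized tags, whereas Pmvk, a kinase of the mevalonate pathway, had a promoter site with a DBD peak and 190 and 132. Cytosolic ribosomal protein genes had the least negative median of the lists, −2.38, with 18 of 20 promoter sites over 4-fold lower and 3 with a DBD peak. Proteasome subunit genes had 5 of 6 and a median of −2.50.

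Genes that the study lists as repressed or activated by KLF3 were chosen for KLF3 promoter peaks in these samples, so their lists are not independent of the heights. Repressed genes had 62 of 64 promoter sites over 4-fold lower, a median of −3.46 and 1 site with a DBD peak. That site was the weakened promoter of Ass1, the argininosuccinate synthase of the urea cycle, with 56, 149, 15 and 19 tags. Activated genes had 18 of 20 over 4-fold lower, a median of −3.16 and no DBD peak. No list was tested for enrichment.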

How the data were processed

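The submitters' processing notes name FastQC 0.10.1, Bowtie2 2.0.0, SAMtools 0.1.18, HOMER 4.1 and mm9. The authors aligned 50 bp reads and ran the HOMER peak caller separately for each replicate, at 5-fold over the paired input and over the surrounding 10 kb and a false discovery rate of 0.001. The deposited peak scores are a signal, tags in the peak per 100 M tags. All scores are multiples of a fixed step (within 0.1 tag), from which the tags behind each list were taken. The deposited heights are log2 values of tags in 400 bp with both replicates of a construct combined. The deposited G+C content is a fraction and the conservation value a PhastCons score, both as the authors' annotation gives them. Input libraries entered only through the authors' peak calling.

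Peaks that shared at least 1 bp were joined into regions across the 4 lists. List shares were compared with two-sided exact permutation tests, and scores at regions with a peak in all 4 lists with limma 3.58.1 (R 4.3.3, trend, Benjamini-Hochberg over all regions tested). Sequence was read from mm9 with pysam 0.24.0 in Python 3.11.15, and permutation tests used scipy 1.17.1. The genes named are the highest sites of each class, up to 3 high-KLF3 and 3 DBD-called members of each gene list, genes named by the study and the lowest limma p-values. Some sites that this rule names are not reported here. The members, classes, gene lists and words were chosen with earlier results of these data known. The overlap, region and limma code was tested on simulated data. Count models were not used, because a list gives a score only where it has a peak. The tags behind the scores ranged from 5.46 M to 18.1 M. These are the totals that the score steps imply and not the mapped reads that the study lists, which were not used. An absent peak does not mean an absence of tags. Alternatives covered overlap rules, score limits, normalization, class limits, motif windows and each replicate left out.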

Additional observations from a re-analysis of the deposited data

How the results depend on the processing

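Of 166 alternative values, 108 stayed on their side of the threshold or near their size, 15 lost and 6 gained a call at a named limma site, and 37 moved a count or value that answers a comparison. No single value changed sign, but limma's balance of calls turned towards higher DBD without KLF3 replicate 1. The 15 are the 5 named falls under the block and without either DBD replicate. In the upper 50% of each list by score, 779 of 7684 KLF3 regions had a DBD peak and 1897 of 2752 DBD regions a KLF3 peak, and with both KLF3 lists required 2398 of 4957 DBD regions had one. Leaving out a replicate, the first count ranged from 2734 of 14119 to 6475 of 26772 and the second from 2573 of 4957 to 5871 of 9156. Sites at least 2-fold higher for DBD numbered 39 with medians equalised over sites listed for both (a shift of 0.41 on the log2 scale). They numbered 5119 with medians equalised over all 22188 regions (−1.16). The number was 680 with the uniform background subtracted, 215 with 10 normalized tags added and 726 over the whole table. With medians equalised over all 22188 regions the median log2 difference was −1.86 at promoters and −0.94 at intergenic sites. Scores shifted to equal medians gave 83 lower and 1 higher in limma, and a mean of at least 20 tags gave 29 lower of 385. With the replicate number as a block 0 regions were lower by limma, and 48 were at an unadjusted p under 0.05. Across regions, the deviations of same-numbered replicates had a correlation of −0.01. This is a single value, because the 2 replicates of a construct deviate by equal and opposite amounts. It also leaves out offsets of whole lists. Replicate 1 had the higher median log2 score in both constructs, 7.66 against 6.55 for KLF3 and 7.49 against 7.28 for DBD. The correlation therefore cannot decide whether the replicate number is a real pairing. With a replicate left out, limma gave from 0 to 94 lower and from 0 to 965 higher. KLF core letters were at 82.5% of dependent and 15.2% of kept sites in the central 200 bp, 48.7% and 3.41% in 50 bp, 42.9% and 10.5% for CACCC alone, and 72.4% and 9.11% with class limits of 4-fold and 8-fold, which left 4858 dependent sites. Chosen after seeing the data, the classes without each replicate gave from 659 to 2378 DBD-only, from 2440 to 3877 kept, from 74 to 303 weakened and from 9150 to 9263 dependent sites. Dependent sites use the authors' combined KLF3 listing, so leaving out a KLF3 replicate could not change them, and the lowest DBD-only number likewise says nothing of stability. KLF core letters were at 6.47% to 8.81% of kept sites. Genes with a DBD peak at a KLF3 promoter were 48 with both DBD lists required and from 93 to 146 with a DBD replicate left out. The planned count models were not run, because no file holds counts. Peaks of 5 to 13 tags set the smallest signal that a list can show.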
